A study of Mus musculus with 4 samples.

Results

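The TRIM family is a group of ubiquitin ligase genes named after a tripartite motif, and its transcripts were measured here in macrophages sorted from tumor-bearing mouse lungs. Members were the rows of the deposited gene table whose name is Trim followed by a number and at most 1 letter, together with Mid1 and Mid2. The rule found 59 genes among 27433 rows, and 37 of them had a mean of at least 1 FPKM (reads divided by the length of the transcript and the size of the library) over the 4 libraries, the level taken here as expressed. In a TRIM protein a RING domain, which carries the ligase activity, is followed by B-box domains and a coiled coil, and the part after the coiled coil differs between classes and chooses what the protein binds. Several members act in the innate response to viral nucleic acid and are themselves induced by interferon, while others sit on microtubules, on chromatin or in membranes. Some proteins that carry the TRIM name lack the RING.

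All recipients shared 1 genotype, which includes Lkb1fl/fl, so that Cre removes the tumor suppressor gene Lkb1, and all received Ad-Cre, an adenovirus that carries Cre, through the nose at 2000000 pfu per mouse. They had been irradiated and given donor bone marrow, and macrophages were taken 8 weeks after the virus. In WTKL the donor marrow was Tmem173fl/fl without Cre. In LYZKL it was Tmem173fl/fl with Lyz2-Cre, which acts mainly in macrophages, monocytes and neutrophils. Both groups carry the floxed allele, so the groups differ in Cre at Lyz2 as well as in Tmem173, and these cannot be told apart. Tmem173 is the gene of STING, an innate immune adaptor that answers to the second messenger made by cGAS. The sort kept cells positive for CD11b and CD64, negative for Ly6G and low for Siglec-F. Each group had 2 libraries. The labels do not say whether these came from separate mice, so p-values measure only the spread between the libraries, which may be technical.

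The size of 1 read in the table implied totals of 15466117 to 22867836 reads per library. Tmem173 itself measured 15.4 and 15.2 FPKM in WTKL against 5.02 and 4.75 FPKM in LYZKL, so the label of each library fits its Tmem173 level. All 9 macrophage markers were present in every library, with the pan-macrophage gene Cd68 at a mean of 376 FPKM and the F4/80 gene Adgre1 at 57.1 FPKM. Their median log2 difference was −0.14, and 5 of the 9 were lower in both LYZKL libraries, among them Fcgr1, the gene of the sort marker CD64 (80.3% of the WTKL mean), and Lyz2, whose locus holds Cre (31.7%). Of all tested genes, 24.4% were lower in both LYZKL libraries and 27.8% were higher in both. The 7 alveolar macrophage markers were mixed, with a median log2 difference of 0.12, 3 higher in both LYZKL libraries and 1 lower in both. Siglecf, the gene of the other sort marker, rose to 243% of the WTKL mean (limma adjusted p = 0.0452). Marco was at 155%, and Fabp4 was the third that was higher. Chil3 was the lower one, with a log2 difference of −0.32. The groups overlapped for Pparg, Car4 and Ear2. All 12 neutrophil markers were in the table, and their summed level was 1881 to 2403 FPKM in WTKL and 3650 to 5601 FPKM in LYZKL. Most of this sum was S100a9, at 2061 and 1562 FPKM in WTKL and 4860 and 3079 FPKM in LYZKL. Of 10 tested neutrophil markers, 8 were higher in both LYZKL libraries (27.8% of all tested genes were). The groups overlapped for Ltf and Ngp, and for Camp, which was too low to be tested. All 14 T and NK cell markers were in the table as well, and they summed to 98.7 to 106 FPKM in WTKL and 58.0 to 73.8 FPKM in LYZKL. All 5 tested B cell markers and all 3 tested dendritic cell markers had negative log2 differences as well, with medians of −0.39 and −0.26. A positive log2 difference was found in 52.1% of all tested genes. No marker of these lists was at 0 in all libraries. Many of these markers therefore move with the groups in every comparison below, and their part in the differences was not tested. In such bulk samples fewer cells of a type and less RNA per cell cannot be told apart.

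Trim25 and Trim30a were the most abundant members. Trim25, the ligase that activates the viral RNA sensor RIG-I, had 47.0 and 46.0 FPKM in WTKL and 49.0 and 46.9 FPKM in LYZKL. The groups overlapped, and the log2 difference of 0.04 had a 95% interval of −0.10 to 0.18. Trim30a, a mouse gene whose protein restrains NF-kB signalling after Toll-like receptors fire, measured 45.2 and 42.3 FPKM in WTKL against 50.9 and 49.0 FPKM in LYZKL. Its close relative Trim30d followed in the order of levels, and then came Trim41 and Trim44. These 5 genes held 41.3% to 42.4% of the family's summed FPKM in the 4 libraries. The sum itself was 371.6 and 365.1 FPKM in WTKL and 399.3 and 394.5 FPKM in LYZKL. Without Mid1 and Trim30b, chosen after their values were seen, it was 354.8 and 349.1 against 363.1 and 362.9 FPKM.

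**Figure D1:**
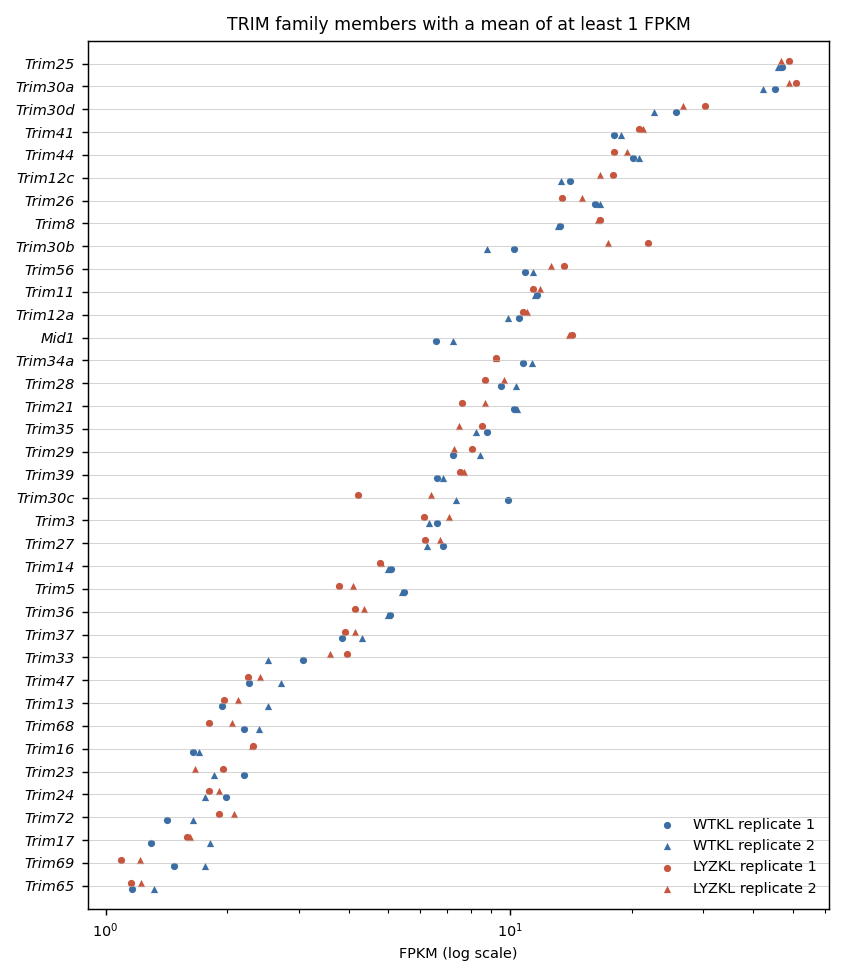
FPKM of the 37 expressed members on a log axis, 1 row per gene ordered by the mean, with blue for WTKL, red for LYZKL, circles for replicate 1 and triangles for replicate 2. Trim25 and Trim30a stand at the top near 47 FPKM, and Mid1 and Trim30b have the widest gaps between blue and red.

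By the part after the coiled coil, the largest class ends in a SPRY domain, a fold that recognises other proteins. It had 32 members in the table, of which 22 were expressed, up to 47.2 FPKM for Trim25. Both members of the class without any such domain, Trim8 and Trim56, were expressed. So were all 3 listed in the class with a PHD finger and bromodomain, which read chromatin (Trim24, Trim28 and Trim33). Each gene was placed in 1 class only, and Trim66 was placed with those lacking a RING. Of the 6 members with a COS box, fibronectin type III domain and SPRY domain, which bind microtubules, Mid1 and Trim36 were expressed. The NHL class, whose best known members bind RNA, had 4 genes and 1 of them expressed, Trim3 at 6.52 FPKM. Of the 5 members listed as lacking a RING, 4 were expressed, with Trim44 at 19.6 FPKM, Trim29 at 7.75 FPKM and Trim14 at 4.90 FPKM at the head. Trim37 (MATH domain, 4.05 FPKM), Trim23 (ARF domain, 1.92 FPKM) and Trim13 (membrane-anchored, 2.14 FPKM) were the expressed members of 3 small classes.

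The other 22 members had means from 0.00173 to 0.856 FPKM. Just above the level of 1 FPKM lay Trim65, with 1.17 and 1.32 FPKM in WTKL and 1.16 and 1.22 FPKM in LYZKL. Just below it lay Trim34b, with 0.839 and 0.709 FPKM in WTKL and 1.05 and 0.826 FPKM in LYZKL. Mid2, the paralog of Mid1 on the same chromosome, rested on 6 and 7 reads in WTKL and on 5 and 1 in LYZKL. Trim59, Trim32, Trim7, Trim46 and Trim62 had means from 0.469 to 0.814 FPKM. Trim6, Trim45, Trim43c and Trim55 lay between 0.103 and 0.334 FPKM. Trim15, Trim43a, Trim2, Trim10, Trim38, Trim9, Trim66, Trim43b, Trim42, Trim67 and Trim71 were under 0.1 FPKM, and the last 4 had a single read over all libraries each. No member of this low group entered the comparison of the groups.

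The design asks what the LYZKL marrow changes in these macrophages. It was tested with limma on log2(FPKM + 1) over all 12691 genes that averaged 1 FPKM or more, with Benjamini-Hochberg adjustment and a threshold of 0.05. On this scale the change of low genes is understated. Mid1 rose and passed, with an adjusted p of 0.0478, and it was the only member of 37 to do so, where 0.292% of all tested genes passed in either direction and 0.158% passed as higher. No member passed as lower (0.134% of all tested genes), and 5 were lower at an unadjusted p under 0.05. At that unadjusted level 9 members were higher in LYZKL, against 10.9% of all tested genes, and the 5 lower ones stand against 7.85%. Both LYZKL libraries lay above both WTKL libraries for 13 members (27.8% of all genes) and below them for 10 (24.4% of all genes). The signs of the 37 differences were near balance, with 17 above 0, where 52.1% of all tested genes were above it, and 20 below. Their median was −0.02 on the log2 scale, and that of all tested genes was 0.01.

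The call for Mid1 sits at the edge of the adjustment, and limma called 0 genes of the table in each fit that omitted 1 library. For Mid1 the adjusted p became 0.246 and 0.249 when WTKL replicates 1 and 2 were omitted in turn, and 0.228 and 0.104 when LYZKL replicates 1 and 2 were. Its log2 difference in these fits, in which the lone library of a group is assumed to vary like the other group, was 0.88 to 1.00. With all 4 libraries the call was also lost with no filter on low values (adjusted p = 0.148), without the trend (0.1), with the replicate number as a block (0.0709) and with columns rescaled to the same median (0.05001), and the first 3 of these settings called 0 genes in the whole table. At an unadjusted p under 0.05, limma with these 4 settings, in that order, left 9 members higher in each and 5, 5, 4 and 6 lower. When reads were rebuilt from the FPKM values and tested with limma-voom, 7 members passed. Mid1, Trim30b, Trim8, Trim12c and Trim33 rose and Trim5 and Trim21 fell by that test, which called 5.74% of all genes higher and 3.5% lower. An exact permutation test of 2 libraries against 2 cannot give a two-sided p below 0.333.

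**Figure D2:**
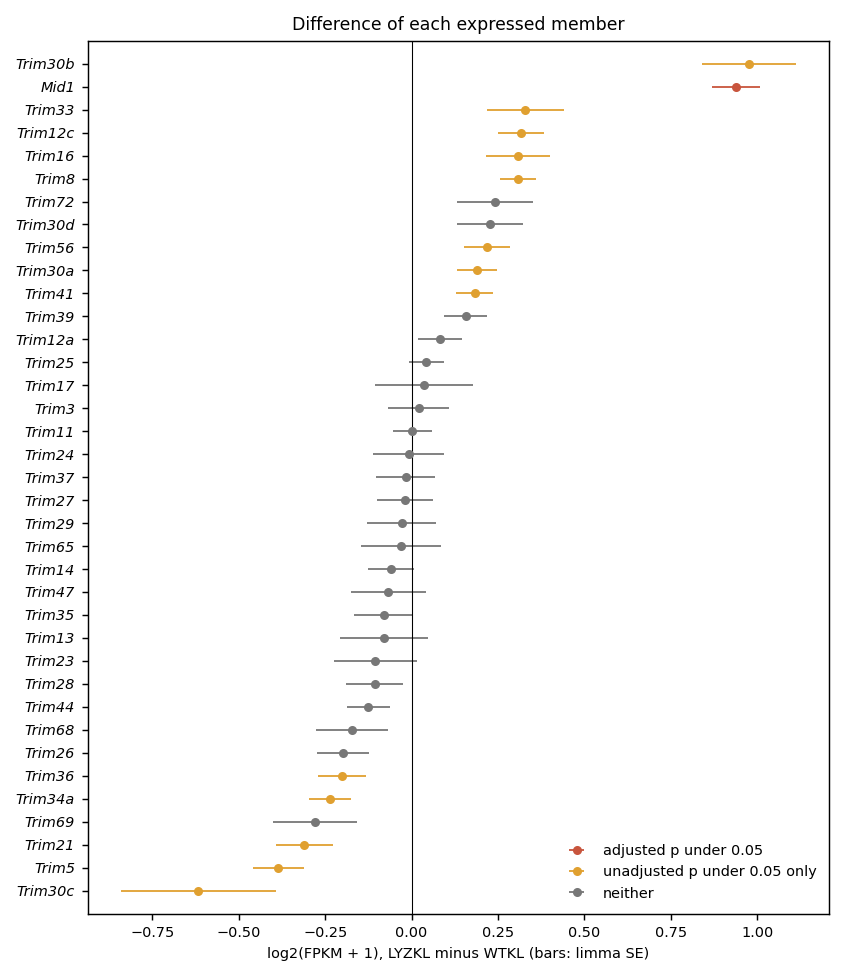
Difference between LYZKL and WTKL in log2(FPKM + 1) for the 37 expressed members, ordered by size, with limma standard errors as bars. Mid1 (red) passed the adjusted threshold, the members in orange reached an unadjusted p under 0.05, and Trim30b and Mid1 lie apart from the others at 0.98 and 0.94.

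Mid1 encodes a ligase bound to microtubules that, through the adaptor alpha4, marks the catalytic subunit of protein phosphatase PP2A for degradation. It lies on the plus strand of chromosome X from 169685199 to 170005736 (mm10, GENCODE release M21). In the mouse this gene crosses the pseudoautosomal boundary, so that its last exons lie in the stretch that X and Y share. Mid1 measured 6.57 and 7.22 FPKM in WTKL against 14.2 and 14.0 FPKM in LYZKL. The groups did not overlap, and the LYZKL mean was 205% of the WTKL mean. The log2 difference was 0.94 (SE 0.07, 95% interval 0.75 to 1.13). The reads behind these values were 683 and 1109 in WTKL and 1574 and 1727 in LYZKL, so counting error is small beside the difference.

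Genes that share this stretch of the chromosome were looked up after the values of Mid1 had been seen. Exons of 3 genes on the other strand cover 17.9% of the Mid1 exon bases, and the libraries did not mark strand, so reads from the shared bases cannot be assigned to one or the other. All 3 had higher values in both LYZKL libraries. G530011O06Rik (minus strand, 169975043 to 169978917) rose from 4.56 and 4.52 FPKM to 10.1 and 11.1 FPKM, with an adjusted p of 0.0478 in limma. Gm15726 (169979047 to 169985232) rose from 17.8 and 18.9 FPKM to 40.1 and 40.3 FPKM, with an adjusted p of 0.0452 in limma. Gm15247 (169985801 to 169986939) measured 12.7 and 14.8 FPKM in WTKL against 29.7 and 37.6 FPKM in LYZKL, and its adjusted p of 0.0641 in limma lay above the threshold.

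Mid1, Gm15726 and G530011O06Rik are thus 3 of the 20 genes in the whole table that passed as higher. The 3 opposite-strand genes together had 387 and 602 reads in WTKL and 928 and 1140 in LYZKL. Scaled to the library total, Mid1 reads were 2.05-fold higher in LYZKL. With all reads of the 3 genes subtracted, a setting chosen after seeing the data and carrying no test, it was 1.73-fold higher, with 19.1 and 22.2 CPM (reads scaled to a fixed library total) in WTKL and 39.3 and 32.0 CPM in LYZKL. Both LYZKL values stayed above both WTKL values.

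Beyond the end of Mid1, Gm21887 (plus strand, 170009659 to 170019281) measured 49.1 and 51.8 FPKM in WTKL against 88.5 and 70.1 FPKM in LYZKL. RefSeq gives Gm21887 as another name of Erdr1, but the table has a row for each. Erdr1 measured 50.2 and 69.95 FPKM in WTKL against 168.9 and 131.5 FPKM in LYZKL. Neither passed in limma, with adjusted p values of 0.113 and 0.0851. On the other side, Hccs, which attaches heme to cytochrome c, measured 3.26 and 2.90 FPKM in WTKL against 3.24 and 3.01 FPKM in LYZKL. Msl3, further out, had a log2 difference of 0.08 (SE 0.07). The higher values thus cover Mid1 and the row of genes within and after its end, and the groups overlapped for Hccs and Msl3 before it. A value per gene cannot say which exons of Mid1 gave the added reads. Whether the mice of the groups differ in this stretch of the chromosome was not tested.

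**Figure D3:**
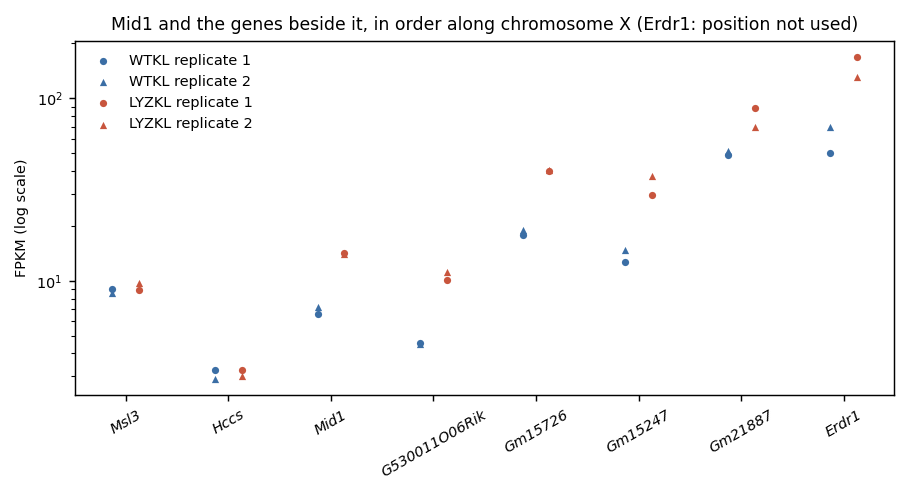
FPKM on a log axis of Mid1 and the genes beside it in order along chromosome X, with Erdr1 last and without a position, blue for WTKL, red for LYZKL, and 1 symbol per replicate. Msl3 and Hccs overlap between the groups, while from Mid1 (6.57 and 7.22 against 14.2 and 14.0 FPKM) to Erdr1 both red symbols lie above both blue ones.

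Since the stretch is shared with the Y chromosome, the sex of the cells was checked. Xist, the RNA that silences one X in female cells, measured 34.9 and 34.2 FPKM in WTKL against 30.7 and 32.2 FPKM in LYZKL. The Y-linked genes Ddx3y, Eif2s3y and Kdm5d were at or below 0.0336 FPKM in every library. All 4 libraries thus had Xist and next to no Y-linked reads.

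Copies elsewhere also bear on Mid1. Of all 150-base windows in its annotated transcripts, 19.2% occur in transcripts of another gene, mostly Mid1-ps1 and G530011O06Rik and fewer in Gm21742. Gm21742 is annotated on the Y chromosome (90837413 to 90844040), yet it had 13.7 and 15.5 FPKM in WTKL and 12.0 and 15.2 FPKM in LYZKL, with overlapping groups, in libraries with almost no reads of those Y-linked genes. How the authors' counting treated reads with several matches is not given in the sources used here.

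No partner of Mid1 passed the adjusted threshold in limma. Of all tested genes, 0.292% passed in limma, and 10.9% were higher and 7.85% lower at an unadjusted p under 0.05. By limma-voom 3.5% of all genes fell. Of 6 listed partner genes, 0 passed in limma and 1 fell in limma-voom. At an unadjusted p under 0.05, 0 were higher and 1 was lower, and the median log2 difference was 0.01. The one that fell in limma-voom was Igbp1, the gene of alpha4, with 20.96 ± 0.0387 FPKM in WTKL against 16.9 ± 0.529 FPKM in LYZKL (SD, n = 2 each). Its log2 difference was −0.29 (SE 0.05), at a limma adjusted p of 0.104 and 0.0122 in limma-voom. Ppp2ca, the PP2A catalytic subunit gene, differed by less than its replicate spread, with 30.8 ± 0.435 FPKM in WTKL and 30.9 ± 0.446 FPKM in LYZKL (SD, n = 2 each). Mid1ip1, whose product binds Mid1, was at 14.4 ± 0.652 and 15.97 ± 0.679 FPKM (SD, n = 2 each).

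Trim36, the other expressed member of the microtubule-binding class, lies on chromosome 18 from 46165300 to 46212607. It measured 5.05 and 5.01 FPKM in WTKL against 4.15 and 4.34 FPKM in LYZKL. Both LYZKL values were lower, by −0.20 on the log2 scale (SE 0.07) at a limma adjusted p of 0.247, so this class held values in both directions.

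The largest set of expressed members lies on chromosome 7. From Trim21 (102557921) to the end of Trim30d (104507849) the table has 12 members, and 10 of them were among the 37 expressed. The mouse Trim5, Trim12, Trim30 and Trim34 genes there arose by duplication and are the counterparts of primate genes that include the retroviral restriction factor TRIM5. At an unadjusted p under 0.05, 3 of these 10 were higher (10.9% of all tested genes were) and 4 were lower (7.85% of all tested genes were).

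Trim30b, a SPRY member on the minus strand from 104355382 to 104369884, had the largest difference of the family. It measured 10.2 and 8.78 FPKM in WTKL against 22.0 and 17.5 FPKM in LYZKL. The groups did not overlap, and the LYZKL mean was 208% of the WTKL mean. Its log2 difference was 0.98 (SE 0.14, 95% interval 0.61 to 1.34), with an adjusted p of 0.0738 in limma. It passed in limma-voom on the rebuilt reads, with an adjusted p of 0.000185, and in limma when the test was limited to genes that averaged 5 FPKM or more (adjusted p = 0.0355), a setting that called 2.99% of its genes higher. The reads were 1192 and 1511 in WTKL and 2720 and 2414 in LYZKL.

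Trim30c, its neighbour from 104382065 to 104400837, had the lowest difference of the family. It measured 9.87 and 7.34 FPKM in WTKL against 4.21 and 6.39 FPKM in LYZKL. The log2 difference was −0.62 (SE 0.22, 95% interval −1.22 to −0.02), with an adjusted p of 0.260 in limma, and the libraries of each group were far apart. Trim30c rested on 262 and 288 reads in WTKL and on 119 and 201 in LYZKL. The ratio of Trim30b to Trim30c, both scaled by length, was 1.04 and 1.20 in WTKL and 5.21 and 2.74 in LYZKL. These genes had the highest and the lowest difference of the family, so a wide gap in their ratio follows. None of the 150-base windows of either gene's annotated transcripts occurs in a transcript of another gene.

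Their relatives Trim30a and Trim30d differed less. Trim30a (104409025 to 104465193) had a log2 difference of 0.19 (SE 0.06) and an adjusted p of 0.208 in limma. Trim30d (104470014 to 104507849) measured 25.7 and 22.7 FPKM in WTKL against 30.3 and 26.8 FPKM in LYZKL, a log2 difference of 0.23 (SE 0.10), limma adjusted p = 0.307. Both LYZKL libraries were above both WTKL libraries in each. These genes share 3.24% and 3.23% of their 150-base windows, so a small part of their reads could have gone to either.

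**Figure D4:**
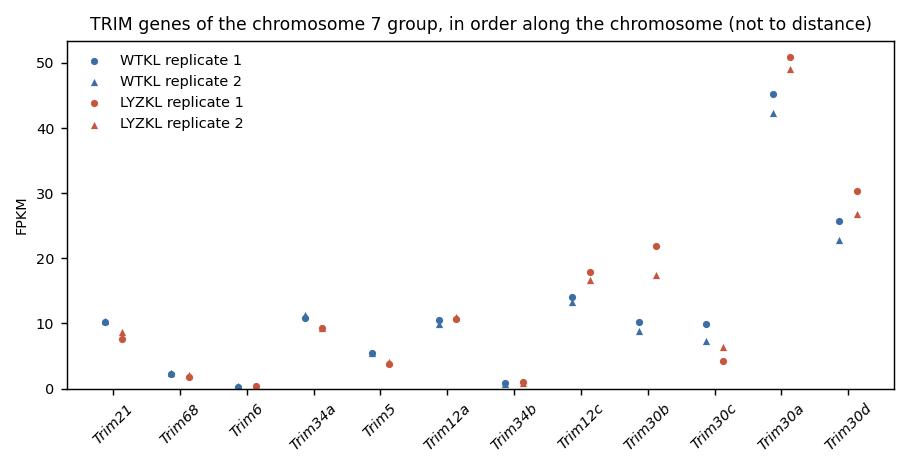
FPKM of the 12 TRIM genes of the chromosome 7 stretch in order along the chromosome, blue for WTKL and red for LYZKL, with 1 symbol per replicate. Among the expressed genes at an unadjusted p under 0.05 and Trim30d, red lies above blue at Trim12c, Trim30b, Trim30a and Trim30d and below it at Trim21, Trim34a, Trim5 and Trim30c.

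Trim12c and Trim5 also stood on opposite sides. Trim12c (minus strand, 104338754 to 104353362) measured 14.1 and 13.4 FPKM in WTKL against 17.97 and 16.7 FPKM in LYZKL, a log2 difference of 0.32 (SE 0.07). Its adjusted p was 0.122 in limma and 0.0179 in limma-voom. Trim5 (minus strand, 104263386 to 104288094) measured 5.48 and 5.40 FPKM in WTKL against 3.79 and 4.08 FPKM in LYZKL, a log2 difference of −0.39 (SE 0.07). Its adjusted p was 0.109 in limma and 0.0215 in limma-voom. The ratio of Trim12c to Trim5 was 2.56 and 2.47 in WTKL and 4.74 and 4.09 in LYZKL. Of the 150-base windows, 2.54% of those of Trim12c and 3.29% of those of Trim5 occur in another gene. Trim12a, the third gene of that kind, had a log2 difference of 0.08 (SE 0.06).

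Trim34a and Trim21 were lower in both LYZKL libraries. Trim34a (plus strand, 104244457 to 104262234) measured 10.8 and 11.4 FPKM in WTKL against 9.26 and 9.24 FPKM in LYZKL, a log2 difference of −0.24 (SE 0.06) at a limma adjusted p of 0.161. Of its 150-base windows, 24.3% occur in another gene, mainly an opposite-strand gene model, so its value is uncertain. Trim21 (minus strand, 102557921 to 102565486) encodes the cytosolic receptor that binds antibody on incoming virus and sends it to the proteasome. It measured 10.2 and 10.4 FPKM in WTKL against 7.59 and 8.68 FPKM in LYZKL, a log2 difference of −0.31 (SE 0.08). Its adjusted p was 0.170 in limma and 0.0408 in limma-voom.

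Because interferon acts on many of these genes, their promoters were searched for the core of the interferon-stimulated response element (ISRE), on both strands. The letters searched were GAAA followed, after 2 bases of any kind, by GAAA again. Promoters came from RefSeq (GRCm38.p6, the 250 bases before each start site and 50 after), which had windows for 45 of the 59 members and 26 of the 37 expressed ones. The pattern was found in 8 of these 26, Trim5, Trim12a, Trim12c, Trim21, Trim26, Trim30a, Trim30d and Trim34a. It was found in 4.18% of all tested genes with a promoter, in 3.44% of all windows, and in 14 of 25 genes of a list of interferon-stimulated genes outside the family. Of the 8 members, 4 had both LYZKL libraries above WTKL (Trim12a, Trim12c, Trim30a and Trim30d) and 4 had both below. Of all tested genes, 27.8% had both above and 24.4% had both below. The GAS pattern TTCNNNGAA was found in 1 of the 26, Trim30c, 62 bases before its start, against 8.2% of all tested genes, and no member held both patterns. In Trim21 and in Trim26 a pair of ISRE core matches overlap. A match is a string of letters, not a measured binding site.

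The sequences below show the match in pairs of duplicated genes, where each pair shares most of the letters shown. They read 5′ to 3′ on the gene's strand, with the match in capitals, where it reads as the reverse complement, TTTC on both sides of 2 bases. The windows of Trim30a (chr7:104465205-104465289, minus strand) and Trim30d (chr7:104507866-104507950, minus strand) span 85 bases and are identical at 85 of 85. Those of Trim5 (chr7:104288136-104288165, minus strand) and Trim12c (chr7:104353359-104353388, minus strand) span 30 bases and are identical at 28, with the changes A29C and G30T from Trim5 to Trim12c, counted from the first base shown. Over a longer window of 85 bases around the same match this pair is identical at 71. The short Trim12c window runs into an annotated Trim12c exon of GENCODE M21, which reaches 104353362. Both changes lie in that exon. Between the pairs, Trim30a and Trim5 are identical at 40 of 85 bases. The window of Trim26 (chr17:36836976-36837005, plus strand) is from another chromosome and is shown for contrast. Only the first of its overlapping matches is in capitals.
Trim30a: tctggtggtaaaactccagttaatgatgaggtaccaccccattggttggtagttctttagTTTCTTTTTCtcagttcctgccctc
Trim30d: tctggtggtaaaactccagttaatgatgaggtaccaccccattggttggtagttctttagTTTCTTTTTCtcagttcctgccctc
Trim5: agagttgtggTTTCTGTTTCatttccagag
Trim12c: agagttgtggTTTCTGTTTCatttccagct
Trim26: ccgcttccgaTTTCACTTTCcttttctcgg

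In these windows the match begins 36 bases before the RefSeq start site in Trim30a, 41 in Trim30d, 49 in Trim5, 29 in Trim12c and 160 in Trim26. Trim5 and Trim12c, with the same 10 letters in the match, lay on opposite sides in LYZKL, while Trim30a and Trim30d were both higher. Whether the match bears on these levels was not tested. Trim26, on the plus strand of chromosome 17 from 36837134 to 36859398, measured 16.2 and 16.7 FPKM in WTKL against 13.4 and 15.1 FPKM in LYZKL, a log2 difference of −0.20 (SE 0.08) at a limma adjusted p of 0.272.

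Outside chromosome 7, the members without a domain after the coiled coil were both higher in LYZKL. Trim8 (chromosome 19, 46501702 to 46516848), which acts on JAK-STAT and NF-kB signalling, measured 13.3 and 13.1 FPKM in WTKL against 16.7 and 16.5 FPKM in LYZKL. The replicates lay close together, and the log2 difference was 0.31 (SE 0.05), at a limma adjusted p of 0.0941 and 0.0190 in limma-voom. Trim56 (chromosome 5, 137105644 to 137116209), a ligase reported to act on the cGAS and STING pathway, measured 10.9 and 11.4 FPKM in WTKL against 13.6 and 12.6 FPKM in LYZKL. Its log2 difference was 0.22 (SE 0.07), at a limma adjusted p of 0.207 and 0.0605 in limma-voom.

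Of the 3 members listed in the chromatin class, Trim33 was higher and the other 2 were not. Trim33 (chromosome 3, 103279293 to 103358775) encodes a regulator of SMAD signalling. It measured 3.09 and 2.52 FPKM in WTKL against 3.95 and 3.58 FPKM in LYZKL, a log2 difference of 0.33 (SE 0.11) at a limma adjusted p of 0.241 and 0.0244 in limma-voom. Trim28, the corepressor that silences retroelements with KRAB zinc finger proteins, had overlapping groups and a log2 difference of −0.11 (95% interval −0.33 to 0.11). Trim24, a coregulator of nuclear receptors, had one of −0.01 (95% interval −0.28 to 0.27). Of all tested genes, 0.292% passed in limma, and 10.9% were higher and 7.85% lower at an unadjusted p under 0.05. By limma-voom 5.74% of all genes rose. Among 8 listed chromatin partners the median was 0.04, and 0 passed in limma. At an unadjusted p under 0.05, 1 was higher and 0 lower, and 1 rose in limma-voom. That gene was Atf7ip, which helps the methyltransferase SETDB1, with 4.67 ± 0.0572 FPKM in WTKL against 6.53 ± 0.516 FPKM in LYZKL (SD, n = 2 each).

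Of the abundant remaining members, Trim41 (chromosome 11, 48806404 to 48817353), a SPRY ligase for protein kinase C, measured 18.1 and 18.8 FPKM in WTKL against 20.8 and 21.3 FPKM in LYZKL. Its log2 difference was 0.18 (SE 0.05), at a limma adjusted p of 0.198. Trim44 (chromosome 2, 102300119 to 102407828), which lacks the RING, measured 20.2 and 20.9 FPKM in WTKL against 18.1 and 19.4 FPKM in LYZKL, a log2 difference of −0.13 (SE 0.06). Trim16 (chromosome 11, 62820231 to 62850808), another RING-less protein, which acts in the clearance of damaged lysosomes, measured 1.64 and 1.70 FPKM in WTKL against 2.32 and 2.31 FPKM in LYZKL. Its log2 difference was 0.31 (SE 0.09), at a limma adjusted p of 0.201. The groups overlapped for Trim29, with a log2 difference of −0.03. Trim14 was lower in both LYZKL libraries by −0.06 (SE 0.07), and its value may hold reads of the opposite-strand gene Nans, which shares exon bases with it.

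The other expressed members, by class, were spread around 0. Trim11, Trim27, Trim35, Trim37, Trim3, Trim23, Trim13, Trim47, Trim17 and Trim65 had log2 differences between −0.10 and 0.04, with overlapping groups in each. Trim39, at 6.61 and 6.84 FPKM in WTKL and 7.52 and 7.68 FPKM in LYZKL, and Trim72, at 1.42 and 1.65 FPKM against 1.91 and 2.08 FPKM, were higher in both LYZKL libraries. Trim68, at 2.19 and 2.40 FPKM against 1.80 and 2.06 FPKM, and Trim69, at 1.47 and 1.76 FPKM against 1.09 and 1.21 FPKM, were lower in both. None of these 4 reached an unadjusted p under 0.05. Exons of the opposite-strand gene Gm15533 cover 27.6% of the Trim72 exon bases, so reads there cannot be assigned to either gene. Gm15533 was higher in both LYZKL libraries as well, at 0.943 and 0.850 FPKM in WTKL against 1.13 and 1.18 FPKM in LYZKL.

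Genes that act with the family were read from the same fit. Of all tested genes, limma called 0.134% lower and 0.158% higher. At an unadjusted p under 0.05, 7.85% of all tested genes were lower and 10.9% higher. By limma-voom 3.5% of all genes were lower and 5.74% higher. Of 29 tested interferon-stimulated genes outside the family, 3 fell and 0 rose in limma (Cxcl9, Gbp5 and Tgtp2). At an unadjusted p under 0.05, 24 were lower and 0 higher, and the median on the log2 scale was −0.55. Cxcl9, a chemokine for T cells, went from 199.3 ± 1.00 to 111.9 ± 5.49 FPKM (SD, n = 2 each). The family's own median was −0.02, although several members are counted among interferon-induced genes. This list and the family were both chosen with earlier results known, and the gap between the medians carries no test. The ubiquitin-like conjugation system of Isg15 had 5 tested genes, of which 0 passed in limma, all 5 had an unadjusted p under 0.05 on the lower side and 5 fell in limma-voom, and the median was −0.51. Ube2l6, its E2 enzyme, measured 24.6 ± 1.55 FPKM in WTKL against 17.6 ± 1.76 FPKM in LYZKL (SD, n = 2 each).

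**Figure D5:**
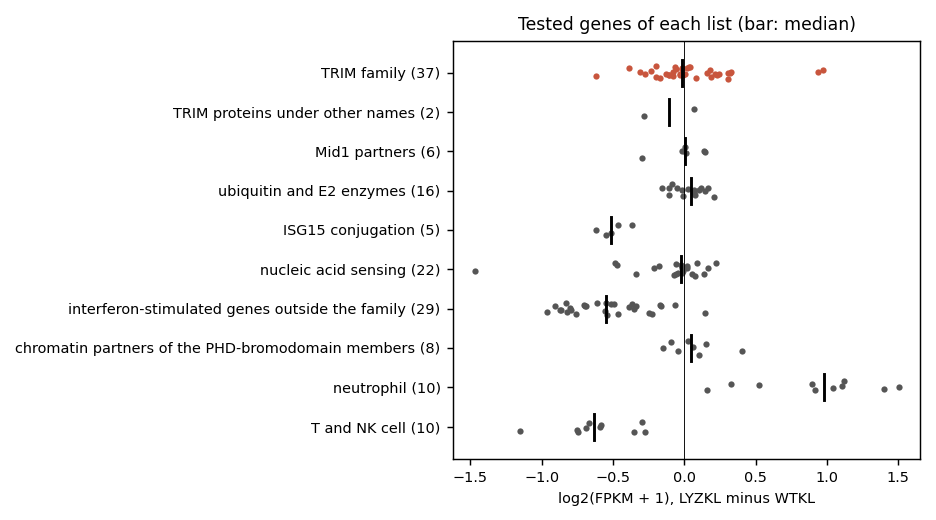
Log2 difference, LYZKL minus WTKL, of each tested gene in the TRIM family (red) and in 9 other lists (grey), with the number of genes in brackets and the median as a black bar. The family's median lies at −0.02, the interferon-stimulated list's at −0.55 and the neutrophil markers' at 0.98.

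Of 22 sensors and adaptors of nucleic acid sensing, many of them TRIM targets, 1 fell in limma, Tmem173 itself (0.134% of all tested genes fell). At an unadjusted p under 0.05, 5 were lower (Tmem173, Dhx58, Irf7, Ifih1 and Ddx58) and 1 higher (Myd88). Of all tested genes 7.85% were lower and 10.9% higher at that level, and limma-voom called 3.5% of all genes lower. In limma-voom 3 fell (Irf7, Ifih1 and Dhx58), and Tmem173 had no value there because its reads could not be rebuilt. The median of the 22 was −0.02. Ifih1, the RNA sensor MDA5, was at 11.3 ± 0.419 and 8.71 ± 0.0106 FPKM (SD, n = 2 each). TRIM proteins whose genes carry other names had 2 tested members. Pml, the organiser of nuclear bodies, measured 2.57 ± 0.0979 FPKM in WTKL against 1.93 ± 0.189 FPKM in LYZKL (SD, n = 2 each), and Mefv, the pyrin gene, at 31.8 ± 6.14 and 33.1 ± 0.9754 FPKM (SD, n = 2 each), with neither past the threshold in limma or limma-voom.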

How the data were processed

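Poly(A) RNA libraries without strand marking were sequenced as 150-bp pairs, per the labels' protocols. The authors deposited 1 table of FPKM values. Build mm10 and the tools Cell Ranger 6.1.2, featureCounts 2.0.0 and HISAT2 2.0.5 appear in the submitters' processing notes without roles; the annotation is not given in the sources used here. Samples were grouped by title, and all carry the same batch label. All 59 member names matched 1 gene each in GENCODE M21.

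Values were log2-transformed after adding 1 FPKM and tested two-sided in R 4.3.3 (limma 3.58.1, trend option, 4.34 degrees of freedom). Reads were rebuilt from the steps of low FPKM values and exon lengths. Whole reads came out for 99.51% of the tested rows, within 0.05 read at the annotated length or 0.003 read at a length searched from 50 to 100000. Those reads were tested with limma-voom. Counting intervals would cover counting error only.

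Values are given in every library for Mid1, Mid2, members at an unadjusted p under 0.05, the 5 most abundant, and those next to 1 FPKM; further members and the genes beside Mid1 were named after their values were seen. Members and lists were chosen with earlier results of these data known. Itgam shares its name with another row and was left out of the markers. Some items are not reported here.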

Additional observations from a re-analysis of the deposited data

How the results depend on the processing

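The 13 other members at an unadjusted p under 0.05 and Trim25, Trim30d and Trim44, 16 in all, kept their direction in all 204 alternative values, and 7 of these passed the adjusted threshold. Direction was in large part fixed beforehand. The filter, trend and block settings leave the log2 difference unchanged. Where the groups do not overlap, as for Mid1 and all 16 but Trim25, a pseudocount or an omitted library cannot turn its sign. The 13 were also picked by their p in these same data. Of the other 20 expressed members, 9 kept their sign in every alternative (Trim12a, Trim14, Trim23, Trim26, Trim28, Trim39, Trim68, Trim69 and Trim72), 11 had another sign in some, and 0 passed the adjusted threshold in any alternative, limma-voom included. Mid1 kept its direction throughout, with adjusted p from 3.38e-05 (limma-voom) to 0.249. Its log2 difference was 0.94 but no longer past the threshold with no filter on low values (adjusted p = 0.148), without the trend (0.1) and with the replicate number as a block (0.0709), and 0.91 with columns rescaled to the same median (0.05001). Leaving out 1 library gave 0.88 to 1.00, with adjusted p of 0.246 and 0.249 without WTKL replicates 1 and 2, and 0.228 and 0.104 without LYZKL replicates 1 and 2. In those 4 settings, and with any 1 library left out, 0 members passed in limma, while the unadjusted p was under 0.05 for 9 higher and 5 lower with no filter and without the trend, 9 and 6 after rescaling, 9 and 4 with the block, and 4 to 6 higher and 1 to 4 lower with a library left out. With a mean of at least 5 FPKM 2 passed (Mid1 and Trim30b), and with limma-voom on rebuilt reads 7. The family's median was 0.0318 over members averaging 5 FPKM or more, −0.0452 after rescaling and −0.029 to 0.0258 with a library left out; the cause was not tested. No label pairs the libraries by their numbers. Deviations of same-numbered libraries correlated at 0.160 over 12691 genes. With 2 libraries per group the crossed pairs give the negative of this value, so it cannot show whether the libraries are paired. Subtracting the reads of the opposite-strand genes from Mid1, an alternative chosen after seeing the data, gave 1.73-fold in place of 2.05-fold. The number of expressed members stayed within 1.5 times of 37 at means of at least 0.5 or 2 FPKM and at 1 FPKM in every library.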
